A study of Mus musculus with 4 samples.

Results

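NKG2D, encoded by Klrk1, is an activating receptor of cytotoxic lymphocytes, and 5 of the 32285 genes counted in these libraries are described here: Klrk1, its adaptor gene Hcst (DAP10) and the ligand genes Ulbp1 (MULT1), Raet1d and Raet1e (both of the RAE-1 family). They were taken by symbol, and they were chosen with their levels in these cells known, so their levels across cell classes are given as a description, without a test. The genotype of the donors played no part in the choice, and it is the only factor tested. Spleen cells enriched for T cells (Tc) were sequenced from 4 BALB/c recipients of WEHI-3B AML cells, a BALB/c myelomonocytic leukemia line, on day 23 after total body irradiation and transplantation of allogeneic C57BL/6 BM, followed by donor Tc. BM and Tc came from Havcr2fl/fl;E8icre/+ donors in 2 recipients and from Havcr2fl/fl donors in the other 2, with 1 library per recipient. All donors carried floxed Havcr2, the gene of TIM-3, and there was neither a donor without floxed alleles nor a cre-only group. The E8i element drives cre in CD8+ cells, so that CD4+ Tc of the same mice are not meant to recombine. The study put the question of how TIM-3 loss in CD8+ Tc changes donor Tc. Values of single libraries are given below in the order Havcr2fl/fl;E8icre/+ replicates 1 and 2, then Havcr2fl/fl replicates 1 and 2.

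NKG2D has no signaling motif of its own and depends on a transmembrane adaptor. DAP10 recruits PI3K and GRB2, and in NK cells of mice a short form of NKG2D can also pair with DAP12, encoded by Tyrobp, which recruits SYK family kinases. CD8+ Tc of mice gain NKG2D upon activation, where it acts mainly as a costimulator, whereas most CD4+ Tc lack it. Its ligands are relatives of MHC class I proteins that healthy cells hold at low levels and that proliferation, DNA damage, infection or transformation can raise.

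Klrk1 lies at chr6:129610323-129623864 on the minus strand and Hcst at chr7:30417712-30419854 on the minus strand of GRCm38. Ulbp1 covers chr10:7440362-7473638 on the minus strand, and its last exon, from which 3′ libraries are read, is shared with no other gene. Raet1d at chr10:22360552-22374139 and Raet1e at chr10:22158569-22374139 overlap on the plus strand. In GENCODE M21 the whole last exon of Raet1d, 363 bases at chr10:22373777-22374139, is also exonic in Raet1e. A 3′ read there belongs to neither gene alone, so counts of both may be too low, and they cannot be compared with those of Ulbp1. The other ligand genes counted are H60b at chr10:22158586-22288849 and H60c at chr10:3256208-3267771. H60b shares 133 of its 1213 exonic bases with Raet1e on the same strand, but 0 of those in its last exon. Of 9 mouse ligand genes listed, 5 were in the files, and Raet1a, Raet1b, Raet1c and H60a were not among the genes counted. C57BL/6, the strain of the donors and of the reference genome, is known to carry Raet1d and Raet1e, and BALB/c to carry those 4 genes, so RAE-1 RNA of recipient or leukemia cells would not be counted under its own gene.

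Stretches near starts of the ligand genes are shown because Ulbp1 was highest in proliferating Tc, and because the Raet1d and Raet1e loci are near copies of each other. RefSeq and GENCODE M21 differ in these starts. The Ulbp1 stretch lies before the GENCODE start given above, and the RefSeq start at chr10:7473477 lies further inside the gene. The Raet1d and Raet1e stretches lie before the RefSeq starts at chr10:22361894 and chr10:22173497, each inside the GENCODE span of its own gene. They are RefSeq sequence of GRCm38.p6, 5′ to 3′ in the direction of the gene, at chr10:7473639-7473727 (minus strand), chr10:22361646-22361891 (plus strand) and chr10:22173251-22173496 (plus strand). Capitals mark the CCAAT and TTCCCGC motifs in Ulbp1 and the bases at which Raet1d and Raet1e differ.

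Ulbp1: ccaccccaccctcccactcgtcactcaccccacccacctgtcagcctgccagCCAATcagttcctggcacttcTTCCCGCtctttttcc

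Raet1d: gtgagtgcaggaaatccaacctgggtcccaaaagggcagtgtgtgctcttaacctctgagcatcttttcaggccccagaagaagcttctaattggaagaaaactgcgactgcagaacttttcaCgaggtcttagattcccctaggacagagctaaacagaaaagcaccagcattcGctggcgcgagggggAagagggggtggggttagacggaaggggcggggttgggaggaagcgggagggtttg

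Raet1e: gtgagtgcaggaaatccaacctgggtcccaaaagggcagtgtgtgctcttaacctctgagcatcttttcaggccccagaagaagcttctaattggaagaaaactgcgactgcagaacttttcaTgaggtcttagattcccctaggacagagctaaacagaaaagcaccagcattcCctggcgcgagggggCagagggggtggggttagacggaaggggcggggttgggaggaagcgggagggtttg

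The Raet1d and Raet1e stretches differed at 3 of 246 bases and were 98.8% identical. Both strands of the 250 bases before each RefSeq start were searched for TTCCCGC (a form of the E2F motif), CCAAT (the NF-Y motif) and TTTGAA (a form of the CHR motif), which are known from cell cycle promoters. Of 32851 windows of RefSeq, 3.82% held TTCCCGC, 33.8% CCAAT and 16.0% TTTGAA. The Ulbp1 window held TTCCCGC with its first base 177 bases before the RefSeq start and 16 bases before the GENCODE start, and CCAAT 198 and 37 bases before them. CCAAT was the only one of the 3 motifs in the windows of Klrk1, Raet1d and Raet1e. These matches are letters in a window and not sites of binding, which was not measured.

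The libraries held 4328, 3208, 1511 and 6737 barcodes with 38386626, 31449644, 17693991 and 55045903 unique molecular identifiers (UMIs) on genes. After filters 11507 cells were kept, of which 6812 lay in Tc clusters and 4695 outside, where 3154 were erythroid-like. Isolation with a pan-T cell kit and a sort of donor Tc, as the labels and the study describe, should leave few such cells. Any 2 libraries shared 1 to 6 barcodes. A level is given below in CPM, the UMIs of a gene scaled to the summed gene UMIs of a class in 1 library, and a mean is that of the libraries with its SD. UMIs are counted at 3′ ends and were not divided by gene length, so levels are compared between classes and not between genes. Cells were called CD8+ Tc (4282) or CD4+ Tc (1766) from Cd8a, Cd8b1 and Cd4 UMIs. In CD8+ Tc the median depth per cell was 4762, 6171, 6975 and 3028 UMIs. Markers of other cells were present in the CD8+ Tc sums, where the 9 erythroid genes summed to 2634 to 5332 CPM. Of 5 NK genes, summing to 31.5 to 49.6 CPM, Ncr1, Klra8 and Klra4 were at 0. Klrb1c was counted, and Klre1 was the highest, at 37.7 CPM over the pooled libraries.

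The labels were checked with Havcr2, the targeted gene. In CD8+ Tc it was at 58.5, 8.03, 55.8 and 116 CPM after TMM normalization. The library labelled Havcr2fl/fl;E8icre/+ replicate 1 thus lay within the range of the Havcr2fl/fl libraries, and Havcr2fl/fl;E8icre/+ replicate 2 below it. On the log2 scale the genotypes differed by −1.35 (Havcr2fl/fl;E8icre/+ minus Havcr2fl/fl, SE 0.645), which did not pass edgeR's quasi-likelihood test over all genes (adjusted p = 0.999). Which exons are floxed is not given in the sources used here, and 3′ reads outside the deleted part would not show the deletion. In CD4+ Tc, Havcr2 was at 53.4, 29.4, 17.045 and 50.5 CPM, so Havcr2fl/fl;E8icre/+ replicate 2 lay within the Havcr2fl/fl range there. The log2 genotype effect in CD8+ Tc minus that in CD4+ Tc was −1.88 (SE 0.485, adjusted p = 0.875, edgeR's interaction test). It was −3.27 without Havcr2fl/fl;E8icre/+ replicate 1. Whether the low CD8+ value of Havcr2fl/fl;E8icre/+ replicate 2 reflects the deletion was not tested. By class described below, Havcr2fl/fl;E8icre/+ replicate 1 lay below both Havcr2fl/fl libraries in T_PEX-like cells (1.22 against 12.3 and 15.2 CPM). These are without TMM, the first from 1 UMI. The same held for Teff-like (34.5 against 128 and 163) and resident-like cells (32.3 against 35.3 and 78.1). It lay between them in T_TEX-like (151 against 132 and 242) and short-term effector-like cells (30.2 against 20.3 and 58.8). It also did so in cycling cells led by Mcm3 and Dtl. Since the label of Havcr2fl/fl;E8icre/+ replicate 1 is in doubt, genotype results for the members are also given without it. This leaves 1 Havcr2fl/fl;E8icre/+ library that is assumed to vary like the others.

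Klrk1 was mainly a gene of CD8+ Tc. It gave 2101 UMIs in 897 cells, 1919 of them in Tc. CD8+ Tc held 53.8, 62.8, 90.8 and 81.8 CPM (72.3 ± 16.99, SD, n = 4) and CD4+ Tc 20.7, 14.2, 12.8 and 15.3 CPM (15.7 ± 3.44, SD, n = 4). The lowest CD8+ value exceeded the highest CD4+ value, and the level in CD8+ Tc was 2.60, 4.42, 7.11 and 5.33 times that in CD4+ Tc of the same library. A Klrk1 UMI was found in 15.4% of CD8+ Tc (95% Wilson interval 14.3 to 16.5) and in 4.53% of CD4+ Tc (3.65 to 5.60). With every cell thinned to 2000 UMIs, which left out 206 and 88 cells, the shares were 10.1% and 2.16%. In erythroid-like cells, which should lack the gene, it was 0.380% at a median of 17709.5 UMIs per cell, against 4802.5 in CD8+ Tc and 4520 in CD4+ Tc, and 0.135% after thinning. Intervals and limits here cover counting error only.

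Within CD8+ Tc, a small cluster led by the interferon-induced genes Ifitm1, Ifitm2 and Ifitm3 and by Anxa1, Ccr2 and Itga1 had the highest Klrk1 level. The cluster held 78 cells and matched none of the marker lists, so it is called by its genes. Its Klrk1 level was 336, 478, 573 and 660 CPM (512 ± 139, SD, n = 4), and all 4 libraries lay above every library of the next class. A Klrk1 UMI was found in 70.5% of its cells (Wilson 59.6 to 79.5) and, after thinning, in 53.5%.

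Short-term effector-like cells came next with 184, 169, 127 and 221 CPM (175 ± 38.9, SD, n = 4). They had 5 of 7 listed markers raised, Klrg1, Cx3cr1, Zeb2, S1pr1 and Klf2, but not S1pr5 or Gzma. T_PEX-like cells, the precursors of exhausted Tc marked by Tcf7, Slamf6 and Id3, held 72.0, 45.2, 127 and 118 CPM (90.4 ± 38.6, SD, n = 4). Resident-like cells held 41.9, 67.9, 72.8 and 88.2 CPM (67.7 ± 19.3, SD, n = 4). They had 3 of 5 listed markers raised, Itga1, Cxcr6 and Rgs1, but not Itgae or Cd69. Both T_PEX-like values of the Havcr2fl/fl;E8icre/+ libraries lay below both of the Havcr2fl/fl libraries, and the same was true of the resident-like values. The genotypes likewise did not overlap in 36.3% of 7092 genes in T_PEX-like and 32.2% of 8258 genes in resident-like cells. Short-term effector-like and T_PEX-like cells overlapped by 1 pair of libraries at about 127 CPM.

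The lowest CD8+ levels were in cycling, T_TEX-like and Teff-like cells. T_TEX-like cells, terminally exhausted Tc with all 9 of their listed markers raised (Tox, Pdcd1 and Lag3 among them), held 28.3, 51.7, 39.6 and 8.57 CPM (32.0 ± 18.3, SD, n = 4). Teff-like cells held 7.27, 30.5, 71.9 and 11.6 CPM (30.3 ± 29.5, SD, n = 4). They had 6 of 7 listed markers raised, Gzmb, Prf1, Gzmk and Ccl5 among them, but not Ifng. Cycling cells led by Nusap1 and Cenpf, genes of the G2 and M phases, were at 44.0 ± 16.0 CPM and those led by Mcm3 and Dtl, genes of S phase, at 39.7 ± 4.20 CPM (SD, n = 4). Klrk1 was 6.51, 3.27, 3.20 and 25.8 times as high in short-term effector-like as in T_TEX-like cells, the same direction in 4 of 4 libraries. Between T_PEX-like and T_TEX-like cells the ratio was 2.55, 0.876, 3.21 and 13.7, so Havcr2fl/fl;E8icre/+ replicate 2 went the other way. Below the Ifitm1 Anxa1 cluster, the libraries of each class placed in order overlapped those of the class next in order, down to the erythroid-like cells. The interferon-stimulated-like, B or plasma-like and CD4 globin RNA classes had too few cells in a library to be placed.

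**Figure D1:**
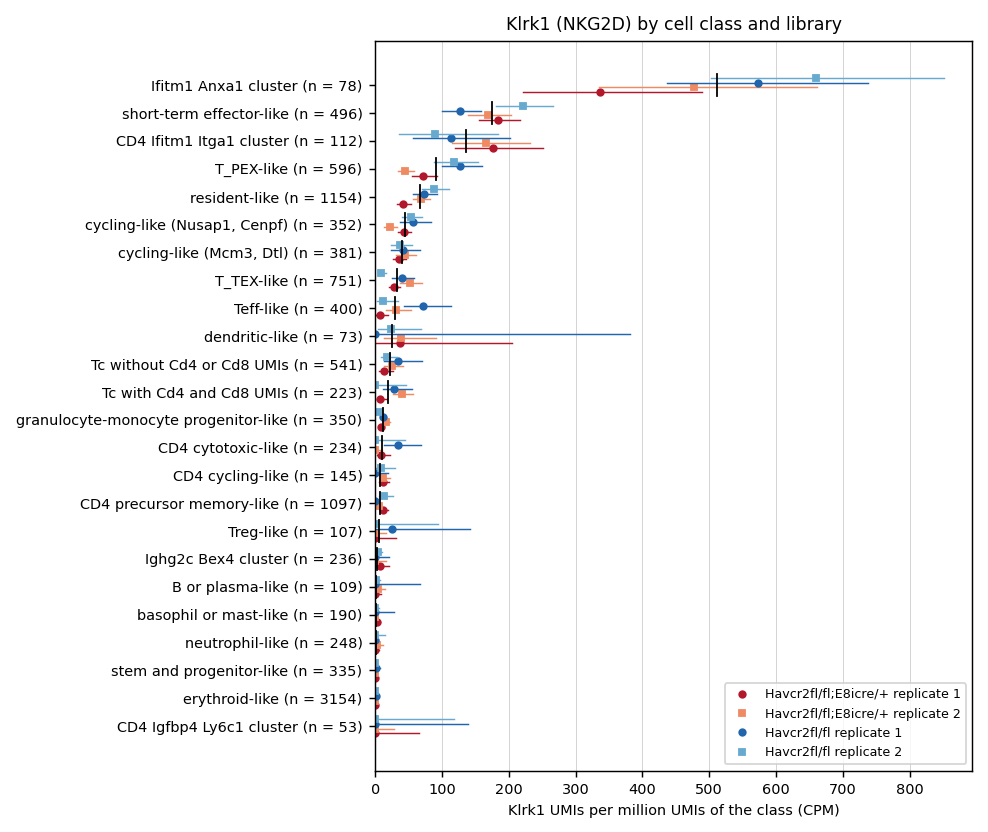
Klrk1 level (x axis, CPM) in each cell class of at least 50 cells (y axis, with its number of cells). Each class has 1 point per library with its exact 95% Poisson interval and a black bar at the mean of the libraries. The Ifitm1 Anxa1 cluster stands at 512 CPM, short-term effector-like cells at 175 CPM, T_TEX-like cells at 32.0 CPM and erythroid-like cells at 0.462 CPM.

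In CD4+ Tc, Klrk1 was found mainly in 1 cluster that was also led by Ifitm genes, Itga1, Ccr2 and Anxa1, and in which Klrk1 itself was among the 10 leading genes. Its 112 cells held 177, 166, 113 and 89.4 CPM (136 ± 41.9, SD, n = 4), from 83 of the 151 Klrk1 UMIs of all CD4+ Tc. CD4 precursor memory-like cells were at 7.54 CPM, cycling CD4+ Tc at 7.74 CPM and CD4 cytotoxic-like cells at 10.6 CPM. All 4 libraries of the CD4 Ifitm1 Itga1 cluster lay above those levels. Of the 107 Treg-like cells, the regulatory Tc that carry Foxp3, 1 Klrk1 UMI was counted. No Klrk1 UMI was counted in the 53 cells of the CD4 Igfbp4 Ly6c1 cluster, which were not enough to show that the gene was lower there than in the other CD4+ Tc.

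Outside the Tc clusters, granulocyte-monocyte progenitor-like cells (marked by Mpo, Prtn3, Elane, Ctsg and Ms4a3) had 140 of 182 Klrk1 UMIs. Their level was 8.63, 16.3, 12.4 and 6.47 CPM (10.96 ± 4.34, SD, n = 4), below every library of all CD4+ Tc except for 16.3 CPM, which lay within their range. These cells were deep, with a median of 33083 UMIs, and 27.4% of the 350 cells had a Klrk1 UMI, but 3.46% after thinning to 2000. In these cells Klrk1 was at 7.91 to 26.0% of its level in CD8+ Tc of the same library. Hcst was at 5.48 to 7.04%, Cd8b1 at 0.759 to 1.44%, Cd3e at 0.814 to 2.03% and Cd3g at 0.612 to 2.28% of theirs. The source of the Klrk1 RNA in these cells was not tested. A Cd3e, Cd3d or Cd3g UMI was found in 24 of 96 such cells with Klrk1 (25.0%, Wilson 17.4 to 34.5) and in 43 of 254 without (16.9%, 12.8 to 22.0), which had medians of 41962.5 and 30151.5 UMIs. A low donor tag (H-2Kb), by a limit of 3 median absolute deviations within the library, was found in 0 of the 350 cells, and whether this limit separates donor from recipient cells was not tested. Dendritic-like cells held 36.6, 38.9, 0 and 23.6 CPM (24.8 ± 17.8, SD, n = 4), a higher mean than that of the progenitors, but from 9 Klrk1 UMIs in 73 cells. Neutrophil-like cells gave 1 Klrk1 UMI.

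The genes whose level was most like that of Klrk1 were other killer lectin receptor genes. Over 81 sums of at least 20 cells (24 classes in up to 4 libraries, which share their depth and cell mixture), log2(CPM + 1) of Klrk1 had its highest Pearson correlations among 8148 genes with Klrc1 (r = 0.794) and Klrc2 (r = 0.760), both of the NKG2A, C and E family, and Klrd1 (r = 0.753), which encodes their partner CD94. Gm44175 (r = 0.710) and S100a4 (r = 0.702) followed. Klrd1, Klrc2 and Klrc1 lie 11.6, 23.6 and 42.1 kb from Klrk1 in the same cluster of receptor genes, and 3′ exons of the 4 genes share no bases.

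Hcst was present in most Tc. It gave 26764 UMIs in 6571 cells, and a UMI was found in 87.0% of CD8+ Tc and 83.5% of CD4+ Tc, against 4.31% of the deeper erythroid-like cells. After thinning to 2000 UMIs the shares were 69.7, 66.5 and 0.786%. All CD8+ Tc held 679 ± 257 CPM and all CD4+ Tc 605 ± 243 CPM (SD, n = 4), and the libraries of both overlapped. Of the 659 CD8+ Tc with a Klrk1 UMI, 593 also had a Hcst UMI. After thinning, an Hcst UMI was found in 77.6% of CD8+ Tc with Klrk1 (64.5 to 88.7 over the libraries) and in 68.8% of those without (55.0 to 81.7).

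The order of CD8+ states by Hcst was not that by Klrk1. Teff-like cells, among the lowest in Klrk1, were highest in Hcst with 1175 ± 330 CPM, followed by resident-like cells with 983 ± 304 CPM and the Ifitm1 Anxa1 cluster with 976 ± 435 CPM (SD, n = 4). T_TEX-like cells held 558, 1128, 1037 and 453 CPM and T_PEX-like cells 449, 624, 855 and 412 CPM. With the same classes left out as for Klrk1, libraries overlapped between each class and the next, from Teff-like cells down to basophil or mast-like cells. Among other cells, neutrophil-like cells (261 ± 94.9 CPM) and basophil or mast-like cells (216 ± 47.1 CPM) had the most Hcst, and erythroid-like cells had 7.74 ± 5.81 CPM.

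Hcst differed between libraries more than between many classes. In the 15 classes with at least 20 cells in every library, Havcr2fl/fl replicate 1 was highest in 13 and Havcr2fl/fl replicate 2 lowest in 15. These are libraries of the same genotype, and they were the deepest and the shallowest per CD8+ Tc. Whether depth has a part in this was not tested.

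**Figure D2:**
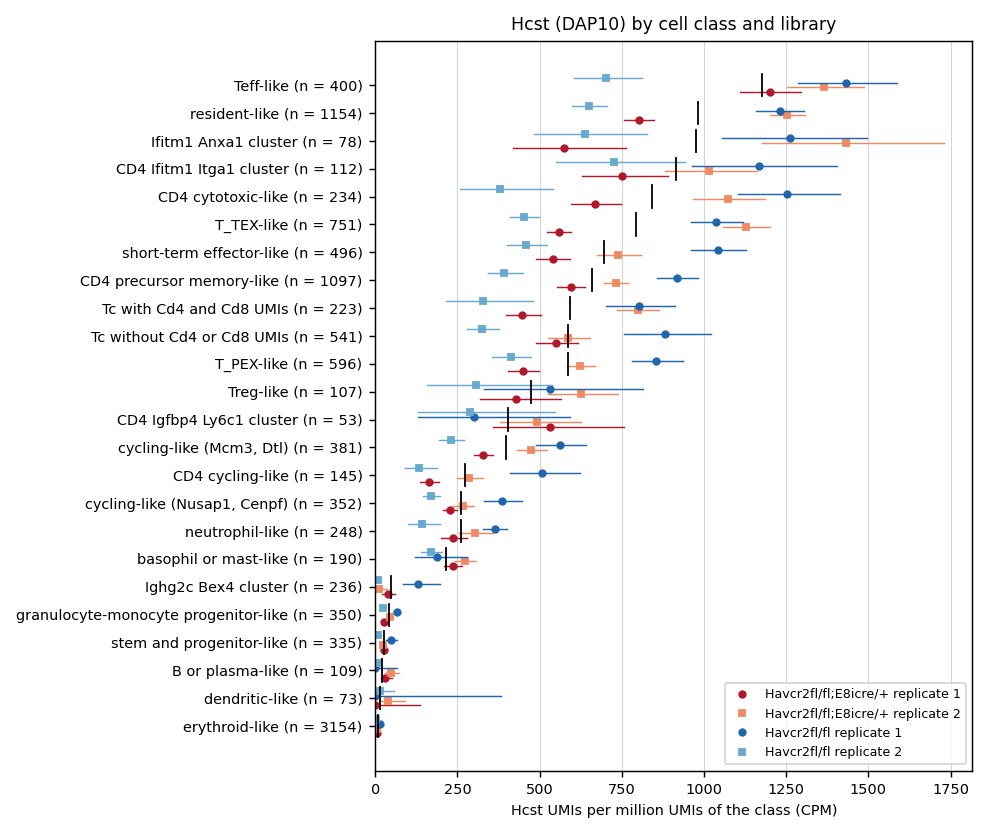
Hcst level (x axis, CPM) in each cell class of at least 50 cells (y axis, with its number of cells). Each class has 1 point per library with its exact 95% Poisson interval and a black bar at the mean. Havcr2fl/fl replicate 2 lies lowest in all 15 classes with at least 20 cells in every library, and Teff-like cells have the highest mean, 1175 CPM.

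Cycling cells had a lower Hcst level than resting cells of their lineage. Cycling CD8+ Tc held 270, 362, 466 and 194 CPM, and resting CD8+ Tc, here all those outside the cycling clusters, 666, 1003, 1091 and 526 CPM. The log2 ratio was −1.36 ± 0.114 (SD, n = 4) and had the same sign in 4 of 4 libraries. In CD4+ Tc it was −1.47 ± 0.408 (SD, n = 4). Counted per cell, however, there were 445 ± 299 Hcst UMIs per 100 cycling and 468 ± 287 per 100 resting CD8+ Tc (SD, n = 4), since cycling cells held a median of 9146 UMIs and resting cells 4299. Within libraries the count per cell was lower in cycling cells in 3 of 4. For Klrk1 there were 41.4, 48.5, 87.5 and 33.8 UMIs per 100 cycling and 28.5, 46.3, 73.0 and 29.98 per 100 resting CD8+ Tc, higher in cycling cells in 4 of 4 libraries. Klrk1 was thus a smaller share of the RNA of cycling cells, with no fewer counts per cell. Whether the counts per cell differed by more than counting error was not tested.

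Tyrobp, the alternative adaptor gene, was near 0 in Tc. It was at 3.80 CPM in CD8+ Tc and 4.19 CPM in CD4+ Tc, below the 6.57 CPM of erythroid-like cells, and 146 of its 19230 UMIs were in Tc. Neutrophil-like cells held 2189 CPM, basophil or mast-like cells 1130 CPM and granulocyte-monocyte progenitor-like cells 818 CPM. At this level, Tyrobp RNA in Tc could not be told from background. The 5 genes most like Hcst in pattern, by the same measure, were Arhgap45 (r = 0.938), Ets1 (r = 0.936), Tbc1d10c (r = 0.936), Rinl (r = 0.935) and Wipf1 (r = 0.929).

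Ulbp1 was the only ligand gene counted at more than traces, with 1643 UMIs in 1195 cells, 947 of them in Tc. It was highest in cycling Tc. In cycling CD8+ Tc it held 71.7, 53.1, 40.5 and 82.6 CPM (62.0 ± 18.8, SD, n = 4), and in resting CD8+ Tc 14.1, 9.44, 10.5 and 18.7 CPM (13.2 ± 4.17, SD, n = 4). Every cycling value lay above every resting value, and the ratio within a library was 5.11, 5.63, 3.85 and 4.42.

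In CD4+ Tc the difference had the same direction and was smaller in size. Cycling CD4+ Tc held 25.9, 34.7, 48.2 and 37.4 CPM (36.5 ± 9.18, SD, n = 4) and resting CD4+ Tc 14.5, 8.80, 13.1 and 9.98 CPM (11.6 ± 2.64, SD, n = 4). The groups did not overlap, and the ratio was 1.79, 3.94, 3.69 and 3.74. The cycling CD4+ values rest on 145 cells and 63 Ulbp1 UMIs in all, 9 of them in each Havcr2fl/fl library. Whether the 2 lineages differ in this ratio was not tested.

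For Ulbp1 the count per cell was higher in cycling cells as well. There were 71.1 ± 8.97 Ulbp1 UMIs per 100 cycling and 6.37 ± 0.851 per 100 resting CD8+ Tc (SD, n = 4). After thinning to 2000 UMIs, a Ulbp1 UMI was found in 11.2, 10.1, 2.13 and 18.6% of cycling and in 2.03, 1.82, 1.89 and 2.84% of resting CD8+ Tc. The share in Havcr2fl/fl replicate 1 is that of 1 of 47 thinned cycling cells, so the difference was not detectable in that library at this depth. For CD4+ Tc the thinned shares were 5.39% and 2.51% on average.

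The 2 cycling clusters of CD8+ Tc did not differ beyond their spread, with 64.8 ± 23.5 CPM in cells led by Nusap1 and Cenpf and 57.9 ± 19.95 CPM in cells led by Mcm3 and Dtl (SD, n = 4). Among classes outside the cycling clusters, T_TEX-like (19.1 ± 3.95 CPM) and short-term effector-like cells (18.7 ± 6.93 CPM) held more Ulbp1 than T_PEX-like cells (6.38 ± 0.534 CPM), and in neither did a library overlap those of T_PEX-like cells. T_PEX-like values ranged from 5.84 to 7.06 CPM, and they rest on 20 UMIs. These classes also differed in the summed level of the 20 cell cycle genes described next, with 1507 CPM in short-term effector-like, 539 CPM in T_TEX-like and 407 CPM in T_PEX-like cells, and the part of this in the Ulbp1 levels was not tested.

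Ulbp1 was also higher in cells with more cell cycle RNA when clusters were set aside. Cells were grouped by their UMIs on 20 cell cycle genes (Mki67, Top2a, Pcna and Mcm2 among them) in 2000 thinned UMIs. In CD8+ Tc with 0, 1 to 2, 3 to 5 and 6 or more such UMIs, Ulbp1 was at 10.7 ± 2.99, 14.8 ± 4.09, 35.5 ± 11.2 and 63.8 ± 17.2 CPM (SD, n = 4). The order was the same within each of the 4 libraries. Hcst went the opposite way over the same groups in all 4 libraries, with means of 859, 806, 516 and 292 CPM. The means of Klrk1 were 88.7, 84.8, 55.8 and 39.1 CPM, but in Havcr2fl/fl;E8icre/+ replicate 2 and Havcr2fl/fl replicate 1 the group with 1 to 2 such UMIs was higher than that with 0. In CD4+ Tc, Ulbp1 was at 11.7, 10.4, 15.3 and 34.7 CPM, so that only the group with 6 or more stood apart from the rest in all 4 libraries. The lowest value of that group was 25.0 CPM, against a highest value of 19.1 CPM in the other groups.

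**Figure D3:**
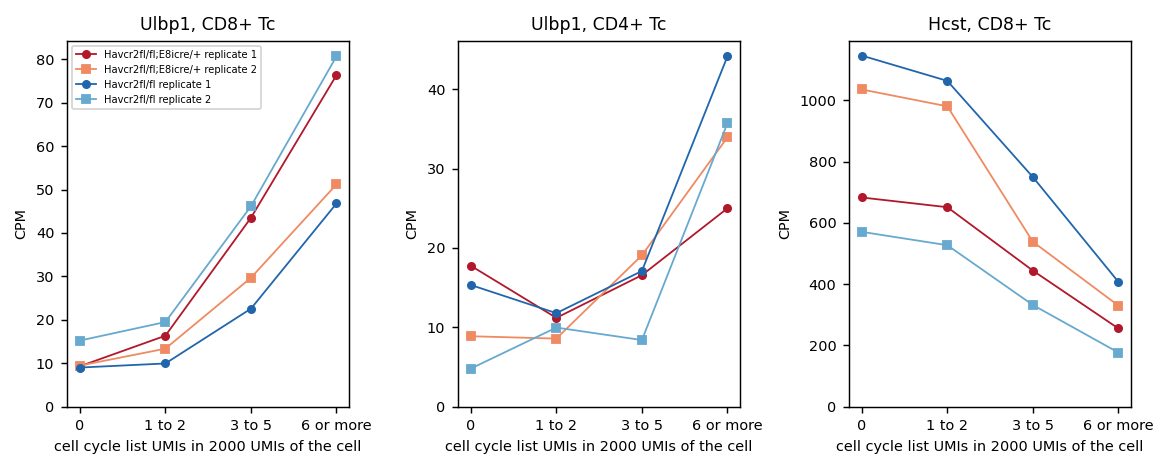
Level (y axis, CPM, from 0) of Ulbp1 in CD8+ Tc and CD4+ Tc and of Hcst in CD8+ Tc, for cells grouped by their cell cycle list UMIs in 2000 thinned UMIs (x axis), with 1 line per library. From the first to the last group, the mean of Ulbp1 in CD8+ Tc goes from 10.7 to 63.8 CPM and that of Hcst from 859 to 292 CPM.

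Other cells rich in cell cycle RNA had a smaller share of Ulbp1 in their RNA. The summed cell cycle list stood at 5844 CPM in erythroid-like cells and 5886 CPM in cycling CD8+ Tc, against 612 CPM in resting CD8+ Tc. Ulbp1 was at 4.97 ± 1.17 CPM in erythroid-like cells, where all 4 libraries lay below every library of resting CD8+ Tc. Granulocyte-monocyte progenitor-like cells had 15.05 ± 3.0995 CPM of Ulbp1 at 4069 CPM of the list, and basophil or mast-like cells 18.5 ± 3.12 CPM at 3735 CPM (SD, n = 4). Each of these lay below the cycling CD8+ Tc in every library. These cells were deeper, and the order of counts per cell was not that of the levels. There were 11.3 ± 3.20 Ulbp1 UMIs per 100 erythroid-like cells, above resting CD8+ Tc in 4 of 4 libraries, and 57.3 ± 26.0 per 100 granulocyte-monocyte progenitor-like cells, above cycling CD8+ Tc in 1 of 4 (SD, n = 4).

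**Figure D4:**
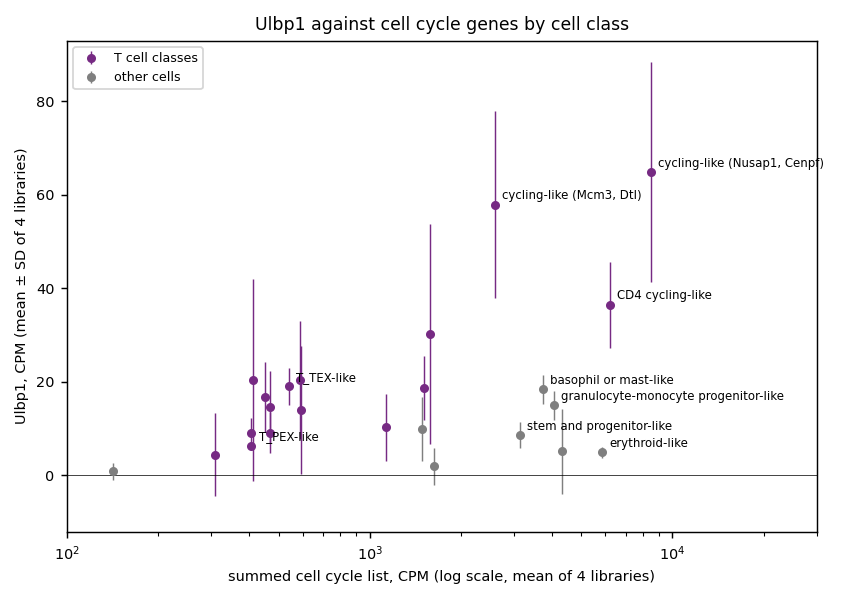
Ulbp1 level (y axis, CPM, mean ± SD of 4 libraries) against the summed level of 20 cell cycle genes (x axis, CPM, log scale) in each cell class of at least 50 cells, with Tc classes in purple and other cells in grey. Erythroid-like cells, with 5844 CPM of cell cycle RNA, hold 4.97 CPM of Ulbp1, while the CD8+ cluster led by Nusap1 and Cenpf holds 64.8 CPM.

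Receptor and ligand RNA were found together in some cells. Of 498 CD8+ Tc with a Ulbp1 UMI, 105 also had a Klrk1 UMI, and 70 of these were cycling. Over all CD8+ Tc, 659 of 4282 had a Klrk1 UMI. Of 110 CD4+ Tc with a Ulbp1 UMI, 10 had a Klrk1 UMI, against 80 of all 1766 CD4+ Tc. Cells were not thinned for these counts, and the part of depth in them was not tested. The genes most like Ulbp1 in pattern were Abracl (r = 0.685), Dda1 (r = 0.683), the histone gene H2afv (r = 0.681), the histone methyltransferase gene Nsd2 (r = 0.680) and Gapdh (r = 0.675), among 6314 genes of at least its mean level.

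Raet1d and Raet1e were counted in traces. Raet1d gave 2, 0, 0 and 3 UMIs and Raet1e 6, 3, 1 and 4 UMIs over all cells. Of the 14 Raet1e UMIs, 12 were in granulocyte-monocyte progenitor-like cells, 5, 2, 1 and 4 per library, or 0.955 CPM in all (exact Poisson interval 0.493 to 1.67). Whether these cells were of donor, recipient or leukemia origin was not tested. No Raet1e UMI was counted in CD8+ Tc, for which 3 counts would be 0.120 CPM. Raet1d had 0 UMIs in these progenitors and 3 of its 5 UMIs in Tc, and the shared last exon limits both counts. H60b gave 41 UMIs (6, 19, 13 and 3 per library), 38 of them in Tc. Its level was 1.14 ± 0.931 CPM in CD8+ Tc and 1.00 ± 0.274 CPM in CD4+ Tc (SD, n = 4). H60b was at 0.457 ± 0.730 CPM in cycling and 1.35 ± 1.13 CPM in resting CD8+ Tc, from 4 and 21 UMIs. These counts were too few to tell whether it differed between them. H60c gave 1 UMI.

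Between the genotypes, Klrk1 in CD8+ Tc was lower with Havcr2fl/fl;E8icre/+ donors, but it did not pass the threshold over all genes. TMM-normalized levels were 51.4, 64.4, 92.3 and 82.7 CPM, with means of 57.9 ± 9.18 and 87.5 ± 6.81 (SD, n = 2), and the genotypes did not overlap. The log2 fold change was −0.60 (SE 0.189, unadjusted p = 0.0105, adjusted p = 0.999, edgeR's quasi-likelihood test with Benjamini-Hochberg adjustment). Of the 10896 genes tested, 0.0275% passed an adjusted p of 0.05, 1.33% were lower at an unadjusted p under 0.05, and 27.8% had genotypes that did not overlap. None of the 3 members tested was among the genes past the adjusted threshold. Without Havcr2fl/fl;E8icre/+ replicate 1, the library in doubt by its Havcr2, the log2 fold change of Klrk1 was −0.45 (SE 0.275, adjusted p = 1.0), and over the other 3 omissions it lay between −0.77 and −0.52.

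Hcst and Ulbp1 in CD8+ Tc differed by less than the spread between libraries. The log2 fold change was −0.05 for Hcst (SE 0.384) and −0.05 for Ulbp1 (SE 0.357), each with an adjusted p of 0.999 in the same edgeR fit. Omission of 1 library turned the direction of both, to 0.68 for Hcst without Havcr2fl/fl replicate 1 and to 0.72 for Ulbp1 without Havcr2fl/fl replicate 2. They were 0.27 (SE 0.462) and −0.42 (SE 0.408) without Havcr2fl/fl;E8icre/+ replicate 1. Raet1d, Raet1e and H60b had too few counts to be tested in any comparison.

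In CD4+ Tc, where cre is not meant to act, Klrk1 was at 19.9, 14.4, 12.95 and 15.8 CPM, and the fold change of 0.26 on the log2 scale (SE 0.331) did not pass in edgeR (adjusted p = 1.00). Hcst and Ulbp1 gave −0.16 (SE 0.389) and −0.19 (SE 0.305), and 0.0103% of 9671 genes passed the threshold. The values of Klrk1, Hcst and Ulbp1 were 0.017, 0.099 and −0.34 without Havcr2fl/fl;E8icre/+ replicate 1. The genotype effect on Klrk1 in CD8+ Tc minus that in CD4+ Tc was −0.85 on the log2 scale (SE 0.326, unadjusted p = 0.0227, adjusted p = 0.996 in edgeR's interaction test). In that test 0.0184% of 10897 genes passed, and 4.34% had an unadjusted p under 0.05. A difference between the lineages was thus not called, and the interaction values of Hcst (0.06, SE 0.111) and Ulbp1 (0.24, SE 0.374) lay closer to 0. For Klrk1 the interaction was −0.49 without Havcr2fl/fl;E8icre/+ replicate 1 (SE 0.336; edgeR, adjusted p = 1.0).

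In cycling CD8+ Tc, Klrk1 was at 37.8, 33.6, 51.0 and 48.1 CPM, without overlap of the genotypes, as in 30.2% of the 8922 genes tested there. Its log2 fold change of −0.46 (SE 0.234) did not pass in edgeR (adjusted p = 1.00), which called 0.056% of these genes. Ulbp1 was at 68.2, 55.4, 41.3 and 83.9 CPM, where the Havcr2fl/fl libraries lay on both sides of the others, and its log2 fold change was −0.07 (SE 0.28). The values were −0.57 (SE 0.334) for Klrk1 and −0.25 (SE 0.309) for Ulbp1 without Havcr2fl/fl;E8icre/+ replicate 1. The genes called there were Hbb-bs, Hbb-bt, Hba-a1, Hba-a2 and Xlr, of which the first 4 are globin genes of erythroid cells. Their part in the values of the members was not tested.

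Within single CD8+ states, the log2 fold change of Klrk1 did not have the same sign throughout, and a difference between states was not tested. These fits were added after the data had been seen. In T_PEX-like cells the log2 fold change was −1.14 (SE 0.257, unadjusted p = 0.000776, adjusted p = 0.393, edgeR), and in resident-like cells −0.53 (SE 0.26). In short-term effector-like cells it was 0.00 (SE 0.263) and in T_TEX-like cells 0.77 (SE 0.558), and none of these passed the threshold. EdgeR called 0% of 7092 and 0% of 7448 genes in T_PEX-like and T_TEX-like cells, where 463 and 282 had an unadjusted p under 0.05, and it called 0.0121% of genes for resident-like cells and 0.0458% for short-term effector-like cells. Without Havcr2fl/fl;E8icre/+ replicate 1 the values of Klrk1 were −1.42 (SE 0.384, adjusted p = 0.0588) in T_PEX-like, −0.20 in resident-like, −0.0081 in short-term effector-like and 1.22 in T_TEX-like cells. The 2 CD8+ classes with the highest Klrk1 levels were a larger share of CD8+ Tc in the Havcr2fl/fl libraries, with 1.10, 1.14, 3.30 and 2.63% for the Ifitm1 Anxa1 cluster and 10.8, 9.87, 16.1 and 12.1% for short-term effector-like cells, which were named here from marker lists and need not hold the cells of any cluster of the study. T_PEX-like cells, the third CD8+ class by Klrk1, made up 11.1, 21.1, 17.7 and 10.5%, where the genotypes overlapped. With the Ifitm1 Anxa1 cluster and short-term effector-like cells removed, Klrk1 in CD8+ Tc gave −0.55 (SE 0.218, edgeR, adjusted p = 1.00). That fit called 0.0374% of genes. The value was −0.36 (SE 0.302) without Havcr2fl/fl;E8icre/+ replicate 1.

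**Figure D5:**
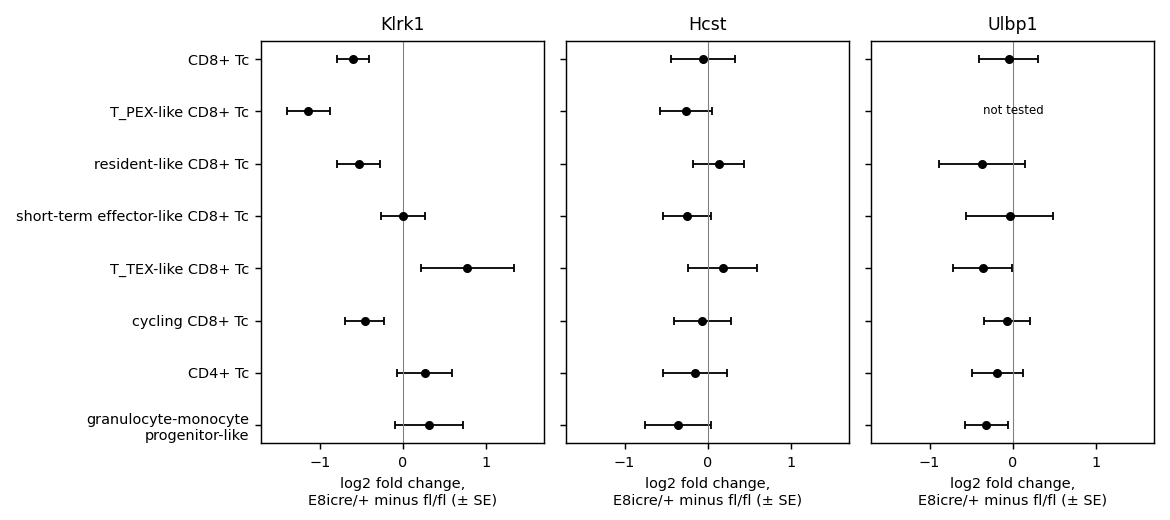
Log2 fold change of Klrk1, Hcst and Ulbp1 (x axis, Havcr2fl/fl;E8icre/+ minus Havcr2fl/fl, ± SE from edgeR) in 8 classes of cells (y axis), from 2 libraries per genotype. Klrk1 is lowest in T_PEX-like cells (−1.14) and highest in T_TEX-like cells (0.77), and no value shown passed the threshold over all genes. Ulbp1 was not tested in T_PEX-like cells, where its counts were too low.

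Among all cells outside the Tc clusters, edgeR called 0 of 12562 genes (0%) for genotype, while 183 had an unadjusted p under 0.05 and DESeq2 called 24. Klrk1, Hcst and Ulbp1 had log2 fold changes of −0.09 (SE 1.03), −0.26 (SE 1.05) and −0.14 (SE 0.336). In granulocyte-monocyte progenitor-like cells, where 0.194% of 9811 genes were called, they were 0.32 (SE 0.406), −0.36 (SE 0.396) and −0.32 (SE 0.262). In erythroid-like cells, where 0.0278% of 10798 genes were called, Hcst gave −0.33 (SE 1.02) and Ulbp1 −0.21 (SE 0.306), and Klrk1 was too low to test. Without Havcr2fl/fl;E8icre/+ replicate 1, Klrk1 gave 0.36 in all cells outside the Tc clusters and 0.79 (SE 0.406) in the progenitors, Hcst 0.021 and 0.025, and Ulbp1 −0.37 and −0.56. In erythroid-like cells Hcst and Ulbp1 were then −0.25 and −0.50. No member passed the threshold in any of these cells.

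Genes around the receptor did not pass the threshold between the genotypes either. Of 19 adaptor and signaling genes tested in CD8+ Tc, 11 were higher and 8 lower with Havcr2fl/fl;E8icre/+ donors, with a median log2 fold change of 0.05 beside 0.00 over all genes, and 0 passed. Those with the smallest unadjusted p were Tyrobp (−0.59, SE 0.404), the adaptor gene Crk (0.23, SE 0.192) and Plcg1 (0.22, SE 0.207), which encodes a phospholipase. Of 7 genes tested for cytokine inputs known to raise NKG2D and DAP10, 5 were higher and 0 passed, with 0.30 (SE 0.208) for Jak3, 0.24 (SE 0.213) for Stat5b and 0.15 (SE 0.247) for Il2rb, a receptor chain of IL-2 and IL-15.

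Of 9 genes that bear on ligand levels through DNA damage signaling, E2F and p53, 8 were higher and 1 lower, with a median of 0.15, and 0 passed. The lower gene was Chek2, a checkpoint kinase gene, at 9.21, 8.03, 15.1 and 12.1 CPM (−0.65, SE 0.262, unadjusted p = 0.0339, adjusted p = 0.999, edgeR). Myc was at 37.0, 16.6, 12.8 and 19.996 CPM (0.71, SE 0.364), where the genotypes overlapped. Of the 20 cell cycle genes, 8 were higher and 12 lower in CD8+ Tc (median −0.07), while in CD4+ Tc 14 were higher and 6 lower (median 0.49), and 0 passed in either. Of 6 other killer lectin receptor genes, 3 were higher and 3 lower in CD8+ Tc. Klrd1 among them was at 192, 207, 337 and 214 CPM (−0.47, SE 0.234) and did not pass either. Its genotypes did not overlap, as in 27.8% of the 10896 genes tested in CD8+ Tc.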

How the data were processed

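Cell Ranger 6.1.2 and the mm10 build were used by the authors, per the submitters' processing notes, and they deposited whole-number UMI counts per gene and barcode called a cell, without normalization, beside 1 antibody tag. The counting annotation is not given in the sources used here. Of the gene identifiers, 32158 (99.6%) were found in GENCODE M21 (GRCm38). A cell needed 500 genes and 1000 UMIs, with no more than 10% of UMIs mitochondrial. Scrublet in scanpy 1.11.5 (Python 3.11.15) removed 2, 5, 9 and 109 doublets. Since it called few cells in 3 of the libraries, removal of the highest scores at 0.8% per 1000 barcodes was an alternative. Cells were clustered with Seurat 5.3.0 (2000 variable genes, 30 dimensions) and named from marker lists. A named class needed at least 3 raised markers. Names were rebuilt here, so a class need not match a cluster of the study.

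UMIs were summed per class and library, since cells of 1 mouse are not replicates, filtered with filterByExpr and tested over all genes by the quasi-likelihood test of edgeR 4.0.16 after TMM scaling (Benjamini-Hochberg adjustment, threshold 0.05), 2 libraries against 2. An interaction fit had the library as a block. The test was tried on simulated data, but what it recovered there is not given here. With 2 libraries against 2, a gene that did not pass is not shown to be unchanged. The members and gene lists were chosen with earlier results of these data known. Named genes were the members, other ligands, Havcr2, marker genes, the 3 genes of each list with the smallest p in CD8+ Tc, and the 5 genes most correlated with a member of at least 100 UMIs. The genes called in cycling CD8+ Tc were named after their values were seen. Protein sequences were not used here. Equal library numbers were not treated as pairs, since no source says that they mark one.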

Additional observations from a re-analysis of the deposited data

How the results depend on the processing

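Leaving out 1 library at a time moved the number of genes called for genotype (in a genotype left with 1 library, that library is assumed to vary like the others). The count was 1 to 13 in CD8+ Tc (3 with all libraries), 4 to 29 in CD4+ Tc (1), 10 to 31 in cycling CD8+ Tc (5), 0 to 128 outside the Tc clusters (0), 0 to 2 in erythroid-like cells (3) and 9 to 69 in granulocyte-monocyte progenitor-like cells (19). The 128 genes were called without Havcr2fl/fl replicate 2. Without the filter on low counts the numbers were 84, 51, 32, 64, 79 and 99. DESeq2 called 5 genes in CD4+ Tc, 24 outside the Tc clusters and 17 in erythroid-like cells. The stricter cell filter, doublets kept, doublets removed by rate, any cell with a Cd3 UMI and DESeq2's size factors each gave 0 in CD4+ Tc. Doublets kept gave 0 in cycling CD8+ Tc and 6 in granulocyte-monocyte progenitor-like cells, where the stricter filter gave 12. Fits added after the data were seen called 0 genes in T_PEX-like, T_TEX-like and Teff-like cells and 1 in resident-like cells. Without Havcr2fl/fl;E8icre/+ replicate 1, single states of CD8+ Tc had 5 to 25 genes called (7 in short-term effector-like cells), and CD8+ Tc without their 2 classes highest in Klrk1 had 59. The causes were not tested.

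Equal replicate numbers were not shown to pair libraries (correlations of deviations from −0.328 to 0.061 over the 6 comparisons). The replicate block called 0 genes in CD8+ Tc, 0 in CD4+ Tc, 3 in cycling CD8+ Tc, 0 in erythroid-like and 61 in granulocyte-monocyte progenitor-like cells. The crossed pairing, added after the data were seen, called 61, 38, 15, 56 and 76. With the replicate block and the crossed pairing, the log2 fold change of Hcst was 0.0182 and 0.0187 in CD8+ Tc, 0.0206 and 0.0253 in cycling CD8+ Tc, 0.52 and 0.52 outside the Tc clusters and 0.39 and 0.42 in erythroid-like cells. That of Ulbp1 in CD8+ Tc was 0.0150 and 0.0199, and that of Klrk1 outside the Tc clusters 0.39 and 0.39. The block changed the call of no member.

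Over single omissions the log2 fold change of Hcst ran from −0.54 to 0.68 in CD8+ Tc, −0.68 to 0.67 in CD4+ Tc, −0.58 to 0.68 in cycling CD8+ Tc, −1.12 to 2.24 outside the Tc clusters, −1.40 to 2.25 in erythroid-like and −0.87 to 0.57 in granulocyte-monocyte progenitor-like cells. For Ulbp1 it ran from −0.53 to 0.72 in CD8+ Tc, −0.43 to 0.60 in cycling CD8+ Tc and −0.37 to 0.13 outside the Tc clusters, and for Klrk1 from −0.95 to 1.93 outside them and −0.26 to 0.88 in granulocyte-monocyte progenitor-like cells. Klrk1 was also higher in T_TEX-like (0.77) and short-term effector-like cells (0.0035), and Hcst in T_TEX-like (0.18), resident-like (0.13) and Teff-like cells (0.25). Without Havcr2fl/fl;E8icre/+ replicate 1 these were 1.222 for Klrk1 in T_TEX-like cells and 0.6188, 0.4526 and 0.3765 for Hcst, which was 0.3157 without the 2 classes highest in Klrk1. Hcst in CD4+ Tc was 5.2e-05 with any Cd3-bearing cell, and Ulbp1 there was 0.0511 under the stricter filter. No member passed the threshold in any alternative. Klrk1 in CD8+ Tc kept its sign in 4 of 4 omissions, with adjusted p from 0.379 to 1.0.

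By thinned shares of cells, the log2 ratio of cycling to resting Tc was −0.65 for Hcst and 1.95 for Ulbp1 in CD8+ Tc and −0.76 and 1.06 in CD4+ Tc. With cycling set by 3 or more cell cycle UMIs, Hcst gave −1.24 and −0.94. All other alternatives moved the ratios of levels by less than the spread between libraries.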
